A study of Mus musculus with 15 samples.

Results

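The genes examined here encode the respiratory complexes of the inner mitochondrial membrane, 62 of the 33340 genes in the count table, of which 49 lie in nuclear DNA and 13 in mitochondrial DNA. The rule takes protein-coding genes whose GENCODE M21 symbols start with mt-, Ndufa, Ndufb, Ndufc, Ndufs, Ndufv or Uqcr, together with Sdha, Sdhb, Sdhc and Sdhd, leaving out Ndufa4l2 and the Ndufaf assembly factors. The nuclear genes comprise 36 of complex I, 4 of complex II, 8 of complex III and Ndufa4, which carries a complex I name but is now placed in complex IV. The mitochondrial genes comprise 7 of complex I, mt-Cytb of complex III, 3 of complex IV and 2 of the ATP synthase.

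The measurements came from polyA RNA of whole lung of C57BL/6 mice, adult males per the study's methods, in a bleomycin (BLM) model of pulmonary fibrosis. Mice received BLM at 5 U/kg into the trachea, and lungs were taken at day 0 (4 libraries), day 7 (4), day 14 (4) and day 21 (3), and the labels name no engineered allele. The day 0 libraries are titled as controls, although the treatment label of day 0 replicate 4 names the drug, and that library was kept at day 0 by its title and time point. The study speaks of biological replicates, the labels do not say that each library came from its own animal, and p-values measure the spread between these libraries. In whole tissue, fewer cells of a type and less RNA per cell cannot be told apart.

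Library totals ran from 15652008 to 18020661 counts, and values are given as CPM (a gene's count relative to its library total) scaled by TMM factors. A gene was called where edgeR's quasi-likelihood test, fitted to all 15 libraries and 17457 genes, gave a Benjamini-Hochberg adjusted p under 0.05, and every adjusted p below comes from that fit unless another tool is named. All 49 nuclear genes and 12 of the 13 mitochondrial genes passed the filter on low counts, the exception being mt-Atp8 with at most 1 count in any library. The 8 fixed markers of lung epithelium and endothelium were detected in every library. For cardiac muscle markers (8 genes) 4 libraries stood apart, with summed levels of 629.5 CPM in day 7 replicate 4, 749.9 CPM in day 21 replicate 1, and 265 and 193 CPM in day 0 replicates 3 and 4. Every other library had at most 58.5 CPM.

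Electrons from NADH enter the chain at complex I (NADH:ubiquinone oxidoreductase) and those from succinate at complex II (succinate dehydrogenase), pass through ubiquinone to complex III (the cytochrome bc1 complex) and cytochrome c, and reach oxygen at complex IV (cytochrome c oxidase). The proton gradient built on the way drives ATP synthase. Complexes I, III and IV and ATP synthase join subunits from both genomes, whereas complex II is wholly nuclear. The mitochondrial genes are copied by a dedicated RNA polymerase as long transcripts that are cut into single messages, so their levels depend both on transcription and on the stability of each message.

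The mitochondrial genes differed widely in how far their reads can be placed. The study aligned reads of 150 bases and dropped those that mapped to several places, and old insertions of mitochondrial DNA in nuclear chromosomes hold copies of some of these genes. Of all 150-base windows of each gene, 99.8% in mt-Co3, 99.4% in mt-Co2, 99.4% in mt-Atp6, 98.0% in mt-Nd4l and 97.0% in mt-Nd3 also occur exactly in an annotated nuclear transcript. The share was 59.2% in mt-Nd4 and 23.6% in mt-Co1. No window of mt-Nd1, mt-Nd2, mt-Nd5, mt-Nd6, mt-Cytb or mt-Atp8 was found in such a transcript. The pseudogene Gm28661 on chromosome 1 matched mt-Co2 at 681 of 681 aligned bases, and Gm28438 on the same chromosome matched mt-Nd3 at 344 of 345. The first 60 bases of both pairs are shown, GRCm38 and GENCODE M21 transcripts, 5′ to 3′, to let the identity of gene and copy be read directly, and a capital marks the base that differs.

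mt-Co2 (chrM:7013-7072, plus strand): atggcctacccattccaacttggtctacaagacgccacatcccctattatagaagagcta
Gm28661 (chr1:24615506-24615565, minus strand): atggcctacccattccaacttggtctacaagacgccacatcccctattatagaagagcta
mt-Nd3 (chrM:9459-9518, plus strand): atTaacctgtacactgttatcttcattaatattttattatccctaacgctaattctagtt
Gm28438 (chr1:24613060-24613119, minus strand): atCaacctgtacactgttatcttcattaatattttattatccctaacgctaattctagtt

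The single difference between mt-Nd3 and its copy was T3C, counted from 1 at the first base of the gene and giving the mitochondrial base first. The 5 genes copied over most of their length together gave 56.8 to 298 CPM per library. Per kb of gene, mean levels were 799 CPM for mt-Nd6 to 8780.5 CPM for mt-Co1 among 7 genes with fewer copied windows. They were 4.47 CPM for mt-Nd4l to 107 CPM for mt-Co2 among the 5 copied genes. The lowest gene was mt-Atp8 at 0.112 CPM per kb, although 0% of its windows were copied. Copies outside annotated transcripts were not sought. Counts at nuclear copies of the genes over 50% copied summed to 80.9 to 319.9 CPM per library. The highest value of both sums was in day 0 replicate 3, at 298 CPM for the genes and 319.9 CPM for the copies. Levels of mt-Co2, mt-Co3, mt-Atp6, mt-Nd3 and mt-Nd4l are therefore uncertain, and those of mt-Nd4 and mt-Co1 in part.

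**Figure D1:**
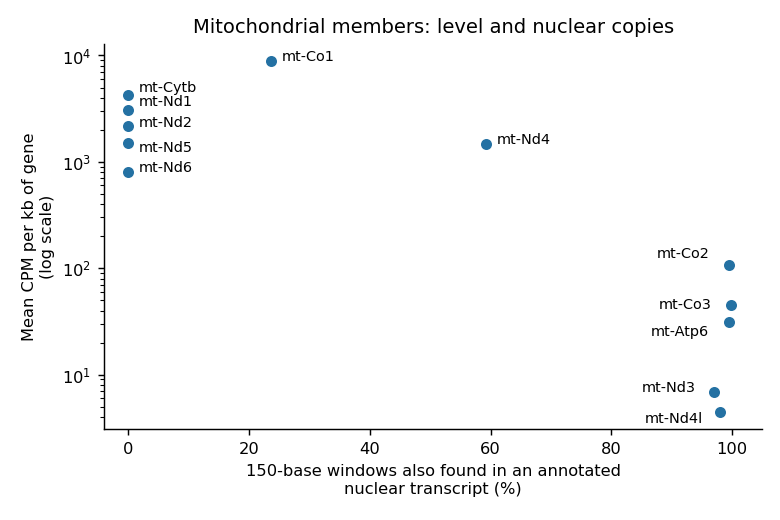
Mean CPM per kb of gene over the 15 libraries (log axis) against the share of 150-base windows found exactly in an annotated nuclear transcript, for 12 mitochondrial genes. The 5 genes with shares of 97.0% or more sit at 4.47 to 107 CPM per kb, and the other 7 shown at 799 or more. Not shown is mt-Atp8, with a share of 0% and 0.112 CPM per kb.

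At day 7 the mitochondrial genes took a lower share of all counts than at day 0 and the nuclear genes a higher mean share, values given here as a description without a test. The 13 mitochondrial genes held 2.18, 2.22, 4.12 and 3.92% of all counts in the 4 day 0 libraries and 2.11, 1.97, 1.98 and 2.02% in the 4 day 7 libraries. The share was 2.04, 3.67, 3.99 and 3.63% at day 14 and 3.90, 3.08 and 2.57% at day 21. Day 0 itself thus split into a lower pair and a higher pair of libraries, every day 7 library lay below all day 0 libraries, and 1 day 14 library lay within the day 7 range.

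Nuclear genes held a far smaller share, 0.233, 0.224, 0.272 and 0.239% of counts at day 0, 0.297, 0.284, 0.273 and 0.266% at day 7, 0.272, 0.344, 0.255 and 0.270% at day 14 and 0.282, 0.233 and 0.265% at day 21. The day 7 libraries overlapped day 0 through day 0 replicate 3 alone, and day 14 replicate 2 stood above every other library. The ratio of mitochondrial to nuclear counts was 9.37, 9.92, 15.1 and 16.4 at day 0 and 7.09, 6.94, 7.25 and 7.57 at day 7, groups that did not overlap. At day 14 it was 7.50, 10.7, 15.7 and 13.5 and at day 21 13.8, 13.2 and 9.68, so that of these libraries day 14 replicate 1 alone lay at the day 7 level. Of the 4 libraries rich in cardiac marker RNA, day 7 replicate 4 had a mitochondrial share of 2.02% and the other 3 had 3.90% to 4.12%. Day 14 replicates 2 to 4 reached 3.63% to 3.99% with 22.6 to 33.9 CPM of those markers. The part of heart muscle RNA in these shares was not tested.

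**Figure D2:**
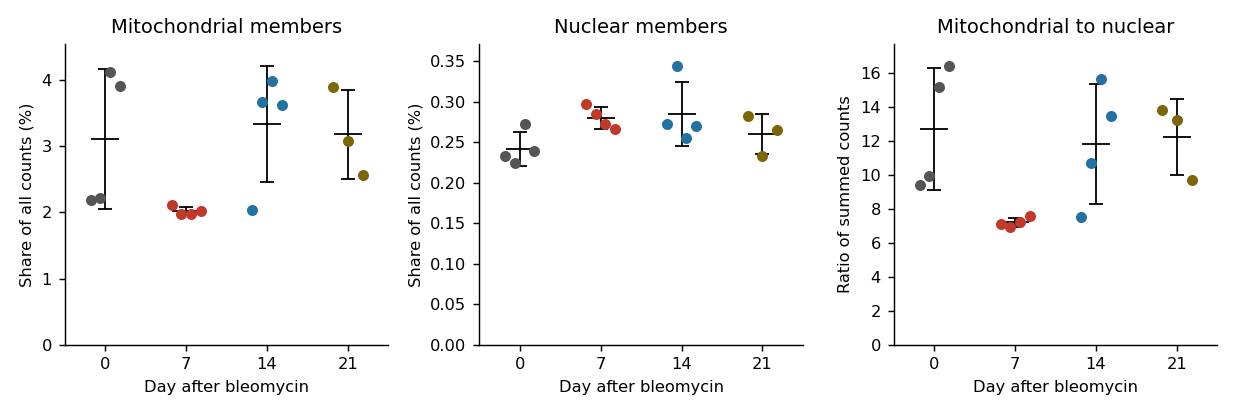
Share of all counts (%) from the 13 mitochondrial genes (left) and the 49 nuclear genes (centre), and the ratio of their summed counts (right), by day after BLM; dots are libraries, bars the mean ± SD. Ratios at day 7 are 6.94 to 7.57, against 9.37 to 16.4 at day 0, and day 14 replicate 1, at 7.50, lies among those of day 7.

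Among the mitochondrial genes, 3 of complex I fell at day 7. mt-Nd2 (ENSMUSG00000064345, chrM:3914-4951, plus strand), a proton-pumping membrane subunit, measured 2486, 2348, 4260.3 and 3811 CPM in the day 0 libraries and 1596, 1221, 1471 and 1743 CPM in the day 7 libraries. The groups did not overlap, and the log2 fold change was -1.10 (SE 0.26, adjusted p = 0.0067). mt-Nd4 (ENSMUSG00000064363, chrM:10167-11544, plus strand), another membrane subunit, measured 1805, 1764, 3404 and 2873 CPM at day 0 and 1492, 1196, 1361 and 1415 CPM at day 7, again without overlap, with a log2 fold change of -0.85 (SE 0.25, adjusted p = 0.022). The third, mt-Nd3 (ENSMUSG00000064360, chrM:9459-9806, plus strand), rested on 16 to 99 counts a library and on a sequence largely shared with its copy. It measured 2.85, 2.60, 6.29 and 1.90 CPM at day 0 and 0.963, 0.893, 1.65 and 1.90 CPM at day 7, where 1 day 7 library was level with the lowest day 0 library. Its log2 fold change was -1.33 (SE 0.40, adjusted p = 0.025).

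These were the 3 calls among the 12 mitochondrial genes tested at day 7, all lower, or 25% of them against 10.8% of all genes tested; 0 were higher against 14.2% of all genes. The median log2 fold change of the 12 was -0.73, against 0.01 over all genes, and all 12 values were negative, from -1.33 to -0.46. Among the 12 are mt-Co2, mt-Co3, mt-Atp6, mt-Nd3 and mt-Nd4l, whose levels are uncertain. For mt-Nd1, mt-Nd2, mt-Nd5, mt-Nd6 and mt-Cytb, the mean log2 level relative to the day 0 mean was -0.73 to -0.59 in day 7 libraries. In day 0 libraries it was -0.42 to 0.46. The remaining complex I genes had log2 fold changes of -0.86 for mt-Nd4l, -0.69 for mt-Nd1, -0.61 for mt-Nd6 and -0.53 for mt-Nd5, with adjusted p from 0.065 to 0.17. mt-Nd6, the one gene here on the minus strand, overlaps mt-Nd5 at its end, and whether counting used strand is not given in the sources used here. The number of calls leaned on single libraries: 1 gene, mt-Nd2, was called without day 0 replicate 3 or without day 7 replicate 2, and 6 without day 0 replicate 1. DESeq2 called 6 of the 12, adding mt-Nd1, mt-Nd5 and mt-Cytb. Of all genes, these 3 fits called 7.96%, 6.63% and 11.1% lower in that order, and DESeq2 called 12.2% lower.

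mt-Cytb (ENSMUSG00000064370, chrM:14145-15288, plus strand), the cytochrome b of complex III, measured 3739.7, 3759.9, 7474 and 6779.9 CPM at day 0 and 3555, 3163, 3308 and 3299.9 CPM at day 7. Every day 7 library lay below all day 0 libraries, but the log2 fold change of -0.71 (SE 0.26, adjusted p = 0.056) did not pass. mt-Co1 (ENSMUSG00000064351, chrM:5328-6872, plus strand), the catalytic subunit of complex IV and the highest of the mitochondrial genes per kb, measured 9462, 9504, 17551 and 17395 CPM at day 0 and 10328, 9609, 9583 and 9772 CPM at day 7. Here the groups overlapped, day 0 replicates 1 and 2 lying as low as day 7, and the log2 fold change was -0.46 (SE 0.26, adjusted p = 0.21). The copied genes mt-Co2, mt-Co3 and mt-Atp6 had log2 fold changes of -0.64, -0.78 and -0.75 at day 7, with adjusted p of 0.24, 0.2 and 0.22.

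By day 14 and day 21 no mitochondrial gene differed from day 0 by the test, with 0 and 1 of the 12 at an unadjusted p under 0.05. Of all 17457 genes tested, 7556 and 7064 had such a p. mt-Co1 measured 10116, 18017, 19422 and 17764 CPM at day 14 and 17883, 14515 and 12566 CPM at day 21, both overlapping day 0. mt-Nd2 measured 1232, 2429.6, 2822 and 2478 CPM at day 14 and 2466, 2124 and 1605 CPM at day 21, and its log2 fold changes were -0.53 (SE 0.25, adjusted p = 0.12) and -0.64 (SE 0.28, adjusted p = 0.093). Background at day 14 was 17.9% of genes higher and 15.2% lower, and at day 21 it was 16.5% and 13.3%. Median log2 fold changes of the 12 genes were 0.21 at day 14 and 0.01 at day 21. Without day 0 replicate 3 the test called mt-Co2, mt-Atp6 and mt-Co3 higher at day 14, with log2 fold changes of 1.07, 1.01 and 0.97, and mt-Co2 higher at day 21 (0.85). All 3 have nuclear copies, and without that library 16% of all genes were called higher at day 14 and 13.9% at day 21. DESeq2 called 0 at day 14 and 1 lower at day 21, where it called 14.6% and 13.7% of all genes lower.

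Within the mitochondrial counts, the share of 4 genes after BLM lay outside its day 0 range in every library. mt-Nd2 made up 11.2, 10.6, 10.4 and 9.85% of the counts of the 13 genes at day 0, and 7.53, 6.23, 7.51 and 8.53% at day 7. It made up 5.91, 6.41, 7.16 and 6.90% at day 14 and 6.41, 6.84 and 6.28% at day 21. All 11 later libraries lay below all 4 day 0 libraries.

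The share of mt-Co1 was 42.8, 42.9, 42.9 and 44.9% at day 0, and it ranged over 47.8% to 49.0% at day 7, 47.6% to 49.5% at day 14 and 46.5% to 49.1% at day 21, above day 0 in every library. The share of mt-Nd4 was 7.42% to 8.31% at day 0 and 6.10% to 7.04% after it. The share of mt-Cytb was 16.9% to 18.2% at day 0 and 15.7% to 16.9% after it. Neither overlapped day 0 on any day, although the highest mt-Cytb share at day 7 came within rounding of the lowest at day 0. The shares of the other 8 genes overlapped with day 0 on all 3 days, among them mt-Nd1, whose gene lies next to mt-Nd2, and mt-Nd5. The count ratio of mt-Nd2 to mt-Nd1, neither of which has a copied window, was 1.20, 1.21, 0.994 and 1.06 at day 0 and 0.783, 0.667, 0.839 and 0.997 at day 7. It was 0.524, 0.530, 0.765 and 0.793 at day 14 and 0.491, 0.631 and 0.605 at day 21. In 36 two-sided exact permutation tests of the shares (12 genes, 3 days), mt-Nd2, mt-Co1, mt-Nd4 and mt-Cytb reached p = 0.0286 at days 7 and 14 and p = 0.0571 at day 21. These are the smallest values that 4 against 4 and 3 against 4 libraries allow, and the smallest adjusted p was 0.129. Shares of one total are not independent of each other, and this comparison was chosen after the values were seen. An edgeR fit with the log2 mitochondrial share as a covariate was planned for nuclear genes alone. That covariate sums the mitochondrial genes, mt-Nd2 and mt-Nd4 included. For these genes the fit therefore restates the shares above and is no separate support. In it mt-Nd2 was called lower at days 7, 14 and 21, with log2 fold changes of -0.49, -0.66 and -0.70 (adjusted p = 0.038, 0.00079 and 0.0011). There mt-Nd4 was called lower at day 21 (-0.36, adjusted p = 0.018). Of all genes, the same fit called 3.49, 16.6 and 14.7% lower on the 3 days.

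**Figure D3:**
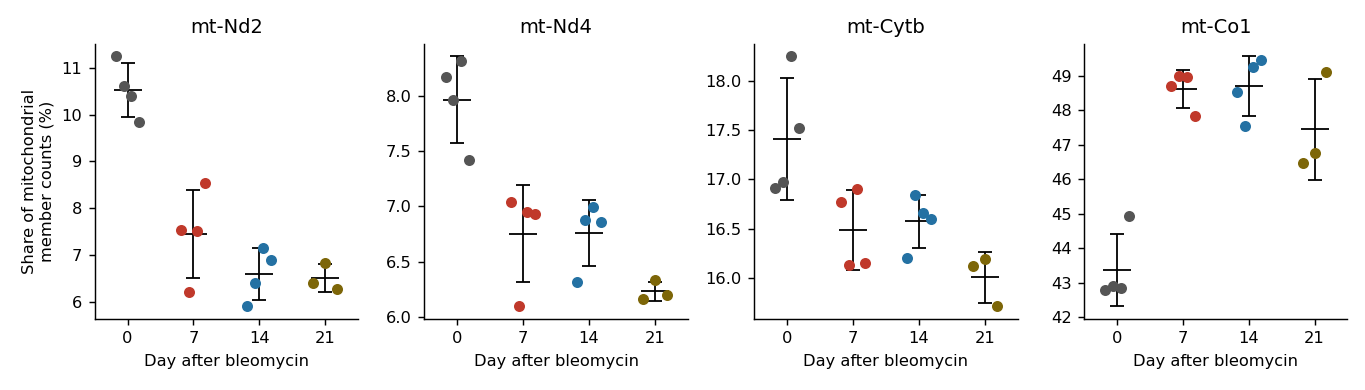
Share of the counts of the 13 mitochondrial genes (%) taken by mt-Nd2, mt-Nd4, mt-Cytb and mt-Co1, by day after BLM; dots are libraries, bars the mean ± SD, and the vertical axes do not start at 0. The day 0 libraries lie above all later ones for the first 3 genes and below them for mt-Co1.

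Of the 49 nuclear genes, 13 rose at day 7 and 1 fell, which is 26.5% higher and 2.04% lower, against 14.2% and 10.8% of all genes tested. At day 14, 14 rose and 0 fell (28.6% higher, against 17.9%), and at day 21, 4 rose and 3 fell (8.16% and 6.12%, against 16.5% and 13.3%). The day 21 shares are thus below those of all genes. At day 14 the count leaned on single libraries. Without day 14 replicate 2 it was 5 of 49, below the 13.9% of all genes called higher in that fit. Without day 14 replicate 3 it was 21, where 17.8% of all genes were called higher. The median log2 fold changes were 0.22, 0.27 and 0.11, and over all genes 0.01, 0.02 and 0.02. Sizes were modest: calls that also passed 1.5-fold, the study's own limit, numbered 2, 3 and 2. At that limit the background was 8.78% higher and 7.36% lower at day 7, 12.0% and 11.2% at day 14, and 12.4% and 10.1% at day 21.

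**Figure D4:**
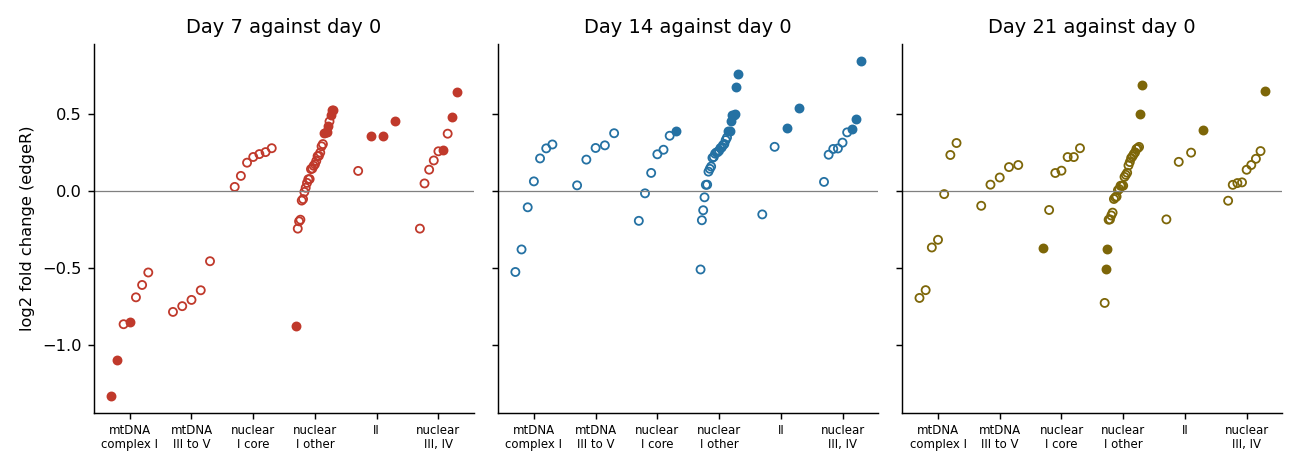
edgeR log2 fold changes against day 0 at days 7, 14 and 21 for the 61 genes tested, grouped by genome and complex and sorted within each group; filled dots have an adjusted p under 0.05. At day 7 all 12 mitochondrial genes lie below 0 and 41 of the 49 nuclear genes above it.

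Complex I joins a catalytic core, of which 7 subunits are nuclear and 7 mitochondrial, with a shell of nuclear accessory subunits. Of the 36 nuclear complex I genes, 7 rose and 1 fell at day 7, 9 rose and 0 fell at day 14, and 2 rose and 3 fell at day 21. That is 19.4, 25.0 and 5.56% higher on the 3 days, against 14.2, 17.9 and 16.5% of all genes, and 2.78, 0 and 8.33% lower, against 10.8, 15.2 and 13.3%, so that the day 21 calls lie below the background. Among the 7 core genes, the calls were Ndufs8, which carries iron-sulfur clusters, higher at day 14 (0.38, adjusted p = 0.03), and Ndufs7, which holds the cluster nearest to ubiquinone, lower at day 21. The core genes Ndufs1, Ndufs3, Ndufv1 and Ndufv2 were not called on any day, with log2 fold changes from -0.12 to 0.36.

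The accessory subunit Ndufa11 (ENSMUSG00000002379, chr17:56717767-56722141, plus strand) was among the most raised. It measured 29.97, 28.4, 37.4 and 31.8 CPM at day 0, 51.3, 48.5, 42.8 and 40.4 CPM at day 7, 50.3, 75.8, 43.8 and 45.6 CPM at day 14 and 54.8, 47.0 and 51.9 CPM at day 21. All 11 later libraries lay above all day 0 libraries, and the log2 fold changes were 0.52 (SE 0.16, adjusted p = 0.025), 0.76 (SE 0.16, adjusted p = 0.0019) and 0.68 (SE 0.17, adjusted p = 0.0063). It was the one nuclear gene still called at day 21 when the 2 libraries richest in cardiac marker RNA, day 7 replicate 4 and day 21 replicate 1, were left out, with a log2 fold change of 0.63.

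Ndufb6 (ENSMUSG00000071014, chr4:40270591-40279421, minus strand), an accessory subunit of the membrane arm, measured 10.9, 11.2, 14.8 and 12.6 CPM at day 0, 19.3, 20.1, 15.5 and 16.1 CPM at day 7, 18.8, 25.9, 17.0 and 17.1 CPM at day 14 and 17.9, 14.4 and 20.1 CPM at day 21. Days 7 and 14 lay above day 0, day 21 replicate 2 overlapped it, and the log2 fold changes were 0.52 (SE 0.16, adjusted p = 0.031), 0.67 (SE 0.17, adjusted p = 0.006) and 0.49 (SE 0.18, adjusted p = 0.046). Exons of other genes cover 39.0% of its exonic bases, so its counts are less certain than those of most members. Ndufa12, an accessory subunit of the matrix arm, rose from 26.7 ± 1.80 CPM (SD, n = 4) at day 0 to 37.4 ± 3.94 at day 7 and 36.5 ± 4.91 at day 14. Its log2 fold changes were 0.49 (SE 0.13, adjusted p = 0.013) and 0.45 (SE 0.13, adjusted p = 0.013). At day 21 it was 31.1 ± 5.53 CPM (SD, n = 3), and its log2 fold change, 0.22, missed the threshold. Ndufb7 passed at day 14 and on no other day, with a log2 fold change of 0.50 (SE 0.16, adjusted p = 0.027), and its day 14 values of 65.9, 101, 57.9 and 59.1 CPM had one high library among them. Other accessory genes passed on a single day: Ndufa10, Ndufa9 and Ndufs5 at day 7 (0.42, 0.38 and 0.38, adjusted p = 0.015, 0.011 and 0.027). At day 14 these were Ndufs6, Ndufs4 and Ndufa13 (0.49, 0.39 and 0.39, adjusted p = 0.03, 0.025 and 0.025), and exons of other genes cover 30% of the exonic bases of Ndufa13. The 16 nuclear members not named were not called on any day, with log2 fold changes from -0.20 to 0.45 at day 7, -0.19 to 0.34 at day 14 and -0.19 to 0.28 at day 21.

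Ndufb2 (ENSMUSG00000002416, chr6:39592574-39603382, plus strand), a small accessory subunit, went the other way. It measured 6.99, 6.35, 9.14 and 7.20 CPM at day 0 and 4.02, 3.57, 4.78 and 3.81 CPM at day 7, without overlap, then 3.96, 3.44, 7.61 and 5.80 CPM at day 14 and 4.14, 3.48 and 5.82 CPM at day 21. Its log2 fold changes were -0.87 (SE 0.25, adjusted p = 0.019), -0.51 (SE 0.25, adjusted p = 0.13) and -0.73 (SE 0.27, adjusted p = 0.054). With a mean of 5.34 CPM over 5628 exonic bases it was also the lowest of the 49 nuclear genes per kb of exon, at 0.949 CPM per kb. At day 21 the 3 genes that fell were Ndufb11, Ndufb3 and Ndufs7. Ndufb11, an X-linked membrane-arm subunit, measured 47.6, 48.2, 62.9 and 52.7 CPM at day 0 and 35.3, 34.5 and 41.8 CPM at day 21, without overlap (-0.51, adjusted p = 0.011). Ndufb3 had 43.4, 38.3, 44.4 and 37.5 CPM at day 0 and 31.8, 29.2 and 33.4 CPM at day 21 (-0.38, adjusted p = 0.043). Ndufs7 had 48.8, 41.7, 56.4 and 48.6 against 40.9, 34.0 and 38.6 CPM (-0.37, adjusted p = 0.043), and neither gene overlapped.

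Complex II, the one complex with no mitochondrial gene, feeds electrons from succinate into the chain and is also an enzyme of the citric acid cycle. Of its 4 genes, 3 rose at day 7, 2 at day 14 and 1 at day 21 (75.0, 50.0 and 25.0%, against 14.2, 17.9 and 16.5% of all genes). Sdhd (ENSMUSG00000000171, chr9:50596357-50603812, minus strand), a membrane anchor of the complex, measured 70.2, 62.6, 72.1 and 60.6 CPM at day 0 and 94.0, 88.1, 76.4 and 81.0 CPM at day 7. It measured 99.2, 119.6, 79.0 and 87.5 CPM at day 14 and 97.2, 81.1 and 83.6 CPM at day 21. All later libraries exceeded all day 0 libraries, with log2 fold changes of 0.35 (SE 0.12, adjusted p = 0.048), 0.54 (SE 0.12, adjusted p = 0.0039) and 0.40 (SE 0.13, adjusted p = 0.035).

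Sdhc, the other membrane anchor, measured 70.6, 57.1, 69.6 and 58.1 CPM at day 0, 98.8, 87.0, 86.9 and 75.9 CPM at day 7 and 83.7, 101, 76.3 and 77.1 CPM at day 14. Both later days lay above day 0, with log2 fold changes of 0.45 (SE 0.12, adjusted p = 0.013) and 0.41 (SE 0.12, adjusted p = 0.015), and 0.25 at day 21 (adjusted p = 0.16). Sdhb, the iron-sulfur subunit, passed at day 7 with 73.7 ± 4.70 CPM against 57.6 ± 6.54 CPM (SD, n = 4 each) and a log2 fold change of 0.36 (SE 0.12, adjusted p = 0.034). Sdha, the flavoprotein that holds the succinate site, measured 241, 231, 200.4 and 223 CPM at day 0, 259, 236, 243 and 241 CPM at day 7, 211, 191, 189 and 215 CPM at day 14 and 188, 191 and 212 CPM at day 21. Its log2 fold changes, 0.13, -0.15 and -0.19, did not pass the test (adjusted p of 0.32, 0.21 and 0.17). The difference between Sdha and the anchors was not tested.

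Of the 8 nuclear genes of complex III, 3 rose at day 7, 2 at day 14 and 1 at day 21 (37.5, 25.0 and 12.5%, against 14.2, 17.9 and 16.5% of all genes), and none fell. Uqcrq (ENSMUSG00000044894, chr11:53427922-53430831, minus strand), a small accessory subunit, had the largest rise of the 49 nuclear genes at days 7 and 14. It measured 43.4, 40.6, 62.9 and 46.4 CPM at day 0, 90.2, 76.5, 69.2 and 64.6 CPM at day 7, 81.5, 115, 74.8 and 75.2 CPM at day 14 and 82.9, 62.1 and 82.2 CPM at day 21. Days 7 and 14 lay above all day 0 libraries and day 21 replicate 2 overlapped them, with log2 fold changes of 0.64 (SE 0.17, adjusted p = 0.014), 0.84 (SE 0.17, adjusted p = 0.0016) and 0.65 (SE 0.18, adjusted p = 0.014). Uqcrc1, a core protein of the complex, rose from 123 ± 13.1 to 172 ± 11.4 CPM at day 7 and 162 ± 27.3 CPM at day 14 (SD, n = 4 each). Its log2 fold changes were 0.48 (SE 0.12, adjusted p = 0.011) and 0.40 (SE 0.12, adjusted p = 0.021). Its partner Uqcrc2 passed at day 7 with a log2 fold change of 0.26 (SE 0.08, adjusted p = 0.025), although 19.7% of its exonic bases lie in exons of other genes. The Rieske iron-sulfur protein Uqcrfs1 just missed at day 7 (0.37, adjusted p = 0.059). Uqcrh and Uqcr10 had log2 fold changes of -0.25 and 0.05 at day 7 and 0.31 and 0.38 at day 14, none past the test.

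**Figure D5:**
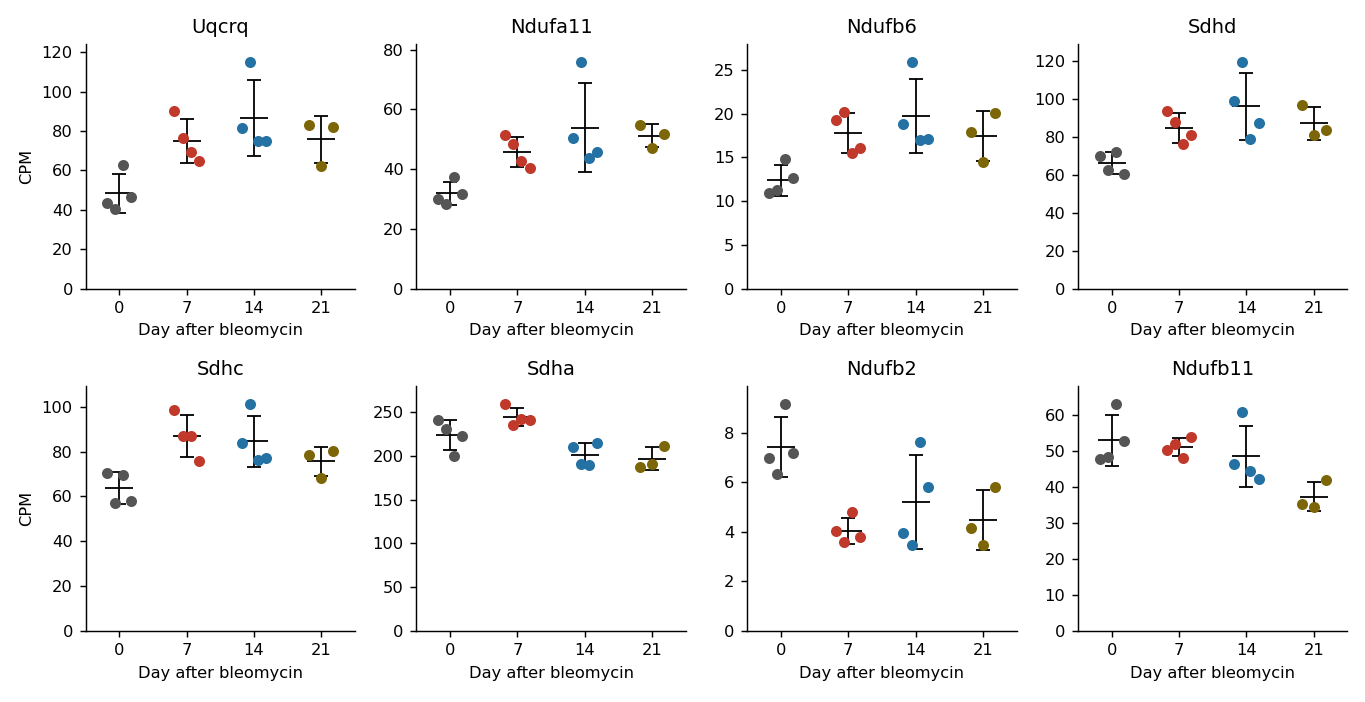
CPM of 8 nuclear genes in each library by day after BLM; dots are libraries, bars the mean ± SD. Ndufa11 and Sdhd lie above all day 0 libraries on every later day, Ndufb2 lies below them at day 7 and Ndufb11 at day 21, and day 14 replicate 2 is the highest dot of its day in Uqcrq, Ndufa11, Ndufb6, Sdhd, Sdhc and Ndufb11.

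Levels differed among nuclear genes by far more than they moved between days. Per kb of exon, the 49 genes had mean levels from 0.949 to 102 CPM, with a median of 29.8. Uqcr10 (102 CPM per kb), Ndufa4 (79.0) and Ndufa8 (71.9) were highest, and Ndufb2 (0.949), Ndufab1 (2.45) and Ndufb5 (3.48) lowest. The last 3 have exon lengths of 5628, 6883 and 4995 bases that include all annotated transcripts. Ndufa8 rose at days 7 and 14, with log2 fold changes of 0.38 (SE 0.12, adjusted p = 0.028) and 0.49 (SE 0.12, adjusted p = 0.0051). Ndufa4 passed at day 14 (0.46, adjusted p = 0.024), with 111, 176, 113 and 111 CPM against 87.8, 76.9, 110.0 and 96.3 CPM at day 0. Ndufab1, the mitochondrial acyl carrier protein, and Ndufb5 were not called at any day, with log2 fold changes from -0.25 to 0.12.

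Single libraries carried part of the nuclear counts. Day 14 replicate 2 had the highest mean log2 level of the 49 genes, 0.56 above the day 0 mean, against 0.09 to 0.17 in the other day 14 libraries. In the same library the cytosolic ribosomal proteins, a list of 81 tested genes, stood 0.58 above day 0, against -0.15 to 0.20 in the others, and 18 ATP synthase genes stood 0.71 above it. Without it 5 nuclear genes were called at day 14, namely Uqcrq, Ndufa11, Ndufb6, Sdhd and Ndufa8, all higher, in a fit that called 13.9% of all genes higher and 12.5% lower. Without day 14 replicate 3 there were 21, with 17.8% and 14.3% of all genes. At day 7 the count was 4 without day 7 replicate 1 and 5 without day 0 replicate 4, and with the log2 mitochondrial share as a covariate it was 4, all higher (Ndufa11, Uqcrc1, Ndufa8 and Uqcrq). Over all genes the calls at day 7 also went down under that covariate, to 6.65% higher and 3.49% lower, as they did without day 7 replicate 1 (9.15% and 6.90%) or without day 0 replicate 4 (9.22% and 7.28%). Without the 2 libraries richest in cardiac marker RNA the counts were 12 at day 7, 14 at day 14 and 1 at day 21. In that fit 12.7% of all genes were higher and 9.53% lower at day 7, 17.3% and 15.4% at day 14, and 12% and 10% at day 21. Without day 21 replicate 1 alone there were 3 at day 21, with 11.1% and 11.4% of all genes. The part of library quality in these differences was not tested.

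Promoters of the nuclear genes were read from RefSeq (GRCm38.p6), 250 bases before to 50 after the start of transcription, and 41 of the 49 genes had an entry. NRF1 and ETS-family factors, among them GABP, and YY1 are the regulators best known for nuclear respiratory genes. On either strand, the NRF1 motif (GCGCA and GCGC with any base between them) occurred in 10 of the 41 (24.4%), against 9.39% of 11604 promoters of protein-coding genes tested. AAGATGGCG (YY1) occurred in 5 (12.2%, against 2.78%), and CCGGAAGT (ETS) in 3 (7.32%, against 7.51%). The last 150 bases before the start site are given for 4 genes, with these motifs in capitals. Ndufa11 and Sdhd, called higher at all 3 days, have 1 NRF1 motif each, Sdha, not called on any day, has 3, and Ndufb6, called higher at all 3 days, has none. They are shown as genes with and without a motif among those called and not called, were picked after their values were seen, and a match of letters is not evidence of binding.

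Ndufa11 (chr17:56717612-56717761, plus strand): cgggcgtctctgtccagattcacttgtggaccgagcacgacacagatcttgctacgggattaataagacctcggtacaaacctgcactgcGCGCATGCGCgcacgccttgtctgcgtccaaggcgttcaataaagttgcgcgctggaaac
Sdhd (chr9:50603850-50603999, minus strand): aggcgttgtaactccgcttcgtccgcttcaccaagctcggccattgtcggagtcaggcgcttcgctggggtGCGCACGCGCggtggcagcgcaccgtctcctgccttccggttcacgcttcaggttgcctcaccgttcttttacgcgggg
Sdha (chr13:74350241-74350390, minus strand): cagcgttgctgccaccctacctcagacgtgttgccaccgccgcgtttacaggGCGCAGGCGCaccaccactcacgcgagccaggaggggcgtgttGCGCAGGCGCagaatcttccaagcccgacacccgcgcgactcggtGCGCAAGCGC
Ndufb6 (chr4:40279422-40279571, minus strand): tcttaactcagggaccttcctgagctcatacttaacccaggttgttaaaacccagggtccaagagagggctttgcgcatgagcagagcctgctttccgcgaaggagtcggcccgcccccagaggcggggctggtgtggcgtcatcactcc

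Other nuclear genes of mitochondria, in lists drawn up by function, are read against the same background, 14.2, 17.9 and 16.5% of all genes called higher and 10.8, 15.2 and 13.3% lower at days 7, 14 and 21. Of 18 nuclear ATP synthase genes, 6 rose at day 7, 7 at day 14 and 1 at day 21 (33.3, 38.9 and 5.56%), and none fell. Atp5g1, a subunit of the rotor ring, was at 32.7 ± 3.93 CPM at day 0 and 51.3 ± 6.48 CPM at day 7, a log2 fold change of 0.65 (SE 0.13, adjusted p = 0.0032). Atp5f1 rose at days 7 and 14 (0.60 and 0.59, adjusted p = 0.0036 and 0.0021), and Atp5mpl at day 14 (0.61, adjusted p = 0.025). Of 16 nuclear complex IV genes, 4 rose at day 7, 5 rose and 2 fell at day 14, and 1 rose and 1 fell at day 21, which is 25.0, 31.2 and 6.25% higher and 0, 12.5 and 6.25% lower. Cox5a, a subunit of the matrix side, rose from 19.4 ± 1.75 to 34.0 ± 2.41 CPM at day 7, with a log2 fold change of 0.81 (SE 0.13, adjusted p = 0.00067). Cox4i2, the isoform of subunit 4 known from lung, fell at days 14 and 21 (-0.67 and -0.66, adjusted p = 0.025 and 0.043). Cox8b, a heart and skeletal muscle isoform, fell at day 14 from a mean of 0.869 CPM to 0.0923 CPM, beside a fall of 2 of the 7 cardiac markers tested. Cox5b and Cox7b rose at day 14 (0.55 and 0.53, adjusted p = 0.0048 and 0.0065).

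The electron carrier Cycs, cytochrome c, rose on all 3 days, from 43.1 ± 5.04 CPM at day 0 to 73.2 ± 1.75, 68.8 ± 7.56 and 62.8 ± 8.99 CPM. Its log2 fold changes were 0.76 (SE 0.11, adjusted p = 0.0003), 0.67 (SE 0.11, adjusted p = 0.00035) and 0.54 (SE 0.12, adjusted p = 0.0032). Cyc1, the cytochrome c1 of complex III that the naming rule leaves out, rose at days 7 and 14 (0.39 and 0.32, adjusted p = 0.019 and 0.037). Of 14 other mitochondrial proteins, 9 rose at day 7, 9 at day 14 and 3 at day 21 (64.3, 64.3 and 21.4%, against 14.2, 17.9 and 16.5% of all genes), and none fell. Among them Cs, citrate synthase, rose at days 7 and 14 (0.58 and 0.35, adjusted p = 0.00057 and 0.008). The chaperone Hspa9 rose at the same days (0.61 and 0.38, adjusted p = 0.0052 and 0.042). The import channel Timm23 rose at all 3 (0.64, 0.80 and 0.75, adjusted p = 0.0039, 0.00047 and 0.0014). Of 77 mitochondrial ribosomal protein genes, which serve translation of the mitochondrial messages, 21 rose and 2 fell at day 7, 21 rose and 1 fell at day 14, and 8 rose and 2 fell at day 21. That is 27.3, 27.3 and 10.4% higher, below the 16.5% of all genes at day 21, and 2.60, 1.30 and 2.60% lower, with median log2 fold changes of 0.23, 0.25 and 0.07. Mrpl16 and Mrpl19 rose by 0.79 and 0.78 on the log2 scale at day 7 (adjusted p = 0.0034 and 0.0019) and Mrpl20 by 0.77 at day 14 (adjusted p = 0.0023). Mrpl33 and Mrps9 were lower, with -0.70 and -0.47 at day 7 (adjusted p = 0.014 and 0.04), as was Mrpl14 with -0.75 at day 21 (adjusted p = 0.0078). Of 81 cytosolic ribosomal protein genes, 3 rose and 2 fell at day 7, 6 rose at day 14, and 2 rose and 1 fell at day 21, with medians of -0.10, 0.14 and 0.05. These are 3.70, 7.41 and 2.47% higher and 2.47, 0 and 1.24% lower, below the share of all genes on each day in both directions. Among those that rose at day 14 were Rps27l (0.84, adjusted p = 0.00058), Rpl41 (0.73, adjusted p = 0.016) and Rps2 (0.64, adjusted p = 0.0086). Those that fell were Rps27 and Rpl22 at day 7 (-0.64 and -0.36, adjusted p = 0.031 and 0.046) and Rps29 at day 21 (-0.50, adjusted p = 0.043).

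Genes that maintain and express mitochondrial DNA formed a list of 26 tested, of which 0 rose and 2 fell at day 7, 2 rose at day 14, and 1 rose and 1 fell at day 21. That is 0, 7.69 and 3.85% higher, against 14.2, 17.9 and 16.5% of all genes, and 7.69, 0 and 3.85% lower, against 10.8, 15.2 and 13.3%. Polg2, the accessory subunit of the mitochondrial DNA polymerase, fell from 7.71 ± 1.15 to 3.58 ± 0.344 CPM at day 7, with a log2 fold change of -1.11 (SE 0.20, adjusted p = 0.0016). Mterf3, which binds near the mitochondrial promoters and is known to repress transcription, fell at day 7 (-0.54, adjusted p = 0.012). Tbrg4, an RNA-binding protein of the FASTK family, rose at days 14 and 21 (0.52 and 0.44, adjusted p = 0.0064 and 0.025), and Pnpt1, the mitochondrial polynucleotide phosphorylase, at day 14 (0.41, adjusted p = 0.016). Of 8 regulators of mitochondrial biogenesis, 1 rose on each of the 3 days (12.5%), and 0, 1 and 1 fell (0, 12.5 and 12.5%). These shares lie below those of all genes on each day. Ppargc1b, Esrra, Nrf1, Gabpa, Gabpb1 and Yy1 were not called on any day. The gene that rose was the coactivator Pprc1 (0.46, 0.68 and 0.48, adjusted p = 0.016, 0.00093 and 0.016). Its relative Ppargc1a (PGC-1α) was at 5.74 ± 1.09 CPM at day 0, 6.46 ± 2.01 CPM at day 7 and 3.24 ± 0.803 CPM at day 14, with a fall at days 14 and 21 (-0.82 and -0.76, adjusted p = 0.019 and 0.046). Of 23 assembly factors of complexes I to III tested, 2 rose at day 7, 1 at day 14, and 1 rose and 2 fell at day 21, or 8.70, 4.35 and 4.35% higher and 0, 0 and 8.70% lower, also below all genes. Acad9 and Ndufaf8 rose at day 7 (0.43 and 0.43, adjusted p = 0.0057 and 0.048). Ttc19 rose at days 14 and 21 (0.49 and 0.58, adjusted p = 0.015 and 0.0093). Ndufaf3 and Ndufaf7 fell at day 21 (-0.55 and -0.41, adjusted p = 0.013 and 0.033).

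Marker genes of several cell types also changed, where 10.8, 15.2 and 13.3% of all genes were called lower and 14.2, 17.9 and 16.5% higher at days 7, 14 and 21. Of the 8 markers of lung epithelium and endothelium, 0 rose and 2 fell at day 7, 6 fell at day 14 and 5 at day 21 (25.0, 75.0 and 62.5% lower), their median log2 fold changes being -0.35, -0.63 and -0.69. Of 6 red blood cell markers, 3 fell at day 7, 5 at day 14 and 5 at day 21 (50.0, 83.3 and 83.3%). Of 4 adipose markers tested 1, 3 and 2 fell (25.0, 75.0 and 50.0%). The summed level of all 6 adipose markers listed was 19.7 to 24.7 CPM at day 0 and 5.41 to 21.5 at day 7. It was 1.48 to 3.89 at day 14 and 1.31 to 3.90 at day 21. Of 5 alveolar macrophage markers, 2 fell at day 7, 1 rose and 1 fell at day 14 and 2 fell at day 21 (40, 20 and 40% lower). Their summed levels were 691 to 1029 CPM at day 0, 469 to 1209 at day 7, 891 to 3405 at day 14 and 1153 to 2395 at day 21. Of 4 skeletal muscle markers tested, 1 rose at day 7 and 1 at day 21 (25.0, 0 and 25.0% higher). The summed level of all 7 skeletal muscle markers listed was at most 17.7 CPM in any library. The part of these cells in the values of the respiratory genes was not tested.

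Between consecutive days after BLM, the mitochondrial genes had higher values at day 14 than at day 7 without passing the test. All 12 had positive log2 fold changes, from 0.57 to 1.16 with a median of 0.89, and all 12 had an unadjusted p under 0.05. Of all 17457 genes tested, 4372 had such a p. edgeR called 0 of them, where 3.49% of all genes were called higher and 3.87% lower (2.77% and 3.23% when a change over 1.5-fold was also required). The call turned on 1 library and on the tool: 7 genes were called higher without day 14 replicate 1, whose mitochondrial share was 2.04%, and DESeq2 called 6. Of all genes, 4.55% were called higher without that library and 5.83% by DESeq2. Of the nuclear genes, 0 were called between these days by edgeR (3 at an unadjusted p under 0.05) and 1 by DESeq2, with a median log2 fold change of 0.09. From day 14 to day 21, 0 nuclear and 0 mitochondrial genes were called, and the same held for all genes tested (0 higher, 0 lower), of which 1714 had an unadjusted p under 0.05. There DESeq2 called 62 genes higher and 53 lower, and limma voom 0. Between these days the nuclear median was -0.17 with 47 of 49 values negative, and the mitochondrial median -0.17, with 3 nuclear and 0 mitochondrial genes at an unadjusted p under 0.05 and DESeq2 calling 0 of either.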

How the data were processed

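Whole-lung polyA RNA of 15 libraries was sequenced as paired reads of 150 bases. Per the labels and the study's methods, the authors trimmed reads with TrimGalore, aligned them with HISAT2 2.1.0 to GRCm38, excluded reads mapping to several places and deposited raw counts per gene from HTSeq 0.6.0. The annotation release and strand setting are not given in the sources used here. The study's own test was DESeq2 1.40.2. Replicates were not pooled, and 0 per-sample columns were left unmapped.

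Gene identifiers were matched to GENCODE M21 (33267 of 33340), and unmatched ones held 0.00889% of counts. The members and lists were chosen with earlier results of these data known. Counts were fitted with edgeR 4.0.16 (R 4.3.3, limma 3.58.1) by the quasi-likelihood test, with filterByExpr (17457 genes kept), TMM factors, all 15 libraries and day as the only term. The common biological coefficient of variation was 22.8%. Standard errors were the log2 fold change divided by the root of F, and p-values were adjusted by Benjamini-Hochberg over all genes tested, with calls at 0.05. Log2 CPM used a prior count of 2, and list scores are mean log2 CPM relative to the day 0 mean. The genes named were all mitochondrial members, the Sdh genes, up to 5 called nuclear members a direction and comparison by size of change, the 3 highest and 3 lowest nuclear members per kb of exon, and up to 3 called genes a direction for each other list. Ndufa9, Ndufa10, Ndufa13, Ndufs1, Ndufs3, Ndufs4, Ndufs5, Ndufs6, Ndufs8, Ndufv1, Ndufv2, Uqcrc2, Uqcrfs1 and Uqcrh were named after their values were seen. The other nuclear members are given by their range, and 1 item is not reported here by name. Alternatives were DESeq2 1.42.0, limma voom, other scalings and filters, only the groups compared, a replicate block, length and GC offsets, the mitochondrial share as a covariate, and leaving out libraries. The script was tested on simulated data. Copies of mitochondrial genes were sought among annotated transcripts, a check chosen after seeing the data. Library totals of 15652008 to 18020661 counts set the counting precision.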

Additional observations from a re-analysis of the deposited data

Results flagged for a closer look

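Of 129 groups of 4 libraries checked, 9 held a library standing far from the other 3, and chance gives about 1 in 20 groups. In day 0 replicate 3, mt-Co2 was at 157.5 CPM against at most 52.3 in the other day 0 libraries, and mt-Atp6 at 52.0 CPM against at most 16.1. Both genes have nuclear copies over nearly all of their length, and counts at those copies were also highest in that library. In day 7 replicate 4, mt-Co3 was at 27.05 CPM against at most 20.28, and the 5 copied genes together took 0.00971% of counts against at most 0.00794%.

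In day 14 replicate 2, Uqcrq was at 115 CPM against at most 81.5 in the other day 14 libraries, Ndufa4 at 176 against at most 113.5, and Uqcr10 at 96.24 against at most 63.5. Cytosolic ribosomal protein genes were also highest in that library. The share of mt-Co1 in mitochondrial counts was 44.94% in day 0 replicate 4 against at most 42.9% in the others, and that of mt-Nd4 was 6.098% in day 7 replicate 2 against at least 6.93%.

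Outside the protein-coding genes, the mitochondrial tRNA gene mt-Tp averaged 75.78 CPM at day 14 and 82.95 CPM at day 21, above the highest day 0 library at 57.6 CPM. The ribosomal RNA gene mt-Rnr1 averaged 403.2 CPM at day 14, just above its highest day 0 library at 399.6, and 340.7 CPM at day 21, while mt-Rnr2 averaged 599.2 and 592.2 CPM, below its highest day 0 library at 801.6. At day 7 every library lay below day 0 for both, at 169.6 to 217.7 CPM against 294 to 399.6 for mt-Rnr1 and 251.2 to 516.7 against 547.8 to 801.6 for mt-Rnr2. PolyA libraries are not made to count tRNAs or ribosomal RNA, and no test was run on these genes.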

How the results depend on the processing

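Under the alternatives run, no result with a call changed direction. The share of all genes called in the same fit, higher and then lower, stands in brackets after a count. Nuclear genes called at day 7 (14 in all) numbered 2 when a 1.5-fold change was required (8.78% and 7.36%), 8 with no filter (6.40% and 5.31%), 4 after adjusting for each library's mitochondrial share (6.65% and 3.49%), and 4 to 13 on leaving out 1 library (9.15% to 12.7% and 6.63% to 11.3%). At day 14 (14) they numbered 3 over 1.5-fold (12.0% and 11.2%), 7 from the 2 groups alone (14.3% and 14.9%) and 5 to 21 on leaving out 1 library (13.9% to 18% and 12.5% to 14.6%). At day 21 (7) they numbered 2 over 1.5-fold (12.4% and 10.1%), 4 with a replicate block (14.9% and 12.5%), 1 without the 2 libraries richest in cardiac marker RNA (12% and 10%) and 3 to 5 on leaving out 1 library (11.1% to 13.9% and 11.4% to 13.1%). From day 7 to day 14 (0), DESeq2 called 1 (5.83% and 5.56%) and leaving out 1 library gave 0 to 1 (1.02% to 4.55% and 1.07% to 4.54%).

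Mitochondrial genes called at day 7 (3) numbered 5 with no filter (6.40% and 5.31%), 7 from the 2 groups alone (15.9% and 15.4%), 6 by DESeq2 (12.8% and 12.2%) and 1 to 6 on leaving out 1 library. At day 14 (0) leaving out 1 library gave 0 to 3, and at day 21 (0) DESeq2 called 1 (14.9% and 13.7%) and leaving out 1 library gave 0 to 1. From day 7 to day 14 (0) there were 3 with no filter (1.90% and 2.39%), 3 from the 2 groups alone (3.67% and 3.63%), 6 by DESeq2 and 0 to 7 on leaving out 1 library. The shares on leaving out 1 library are those given for the nuclear genes. From day 14 to day 21 leaving out 1 library gave 0 in both sets, with at most 0.437% and 0.356% of all genes. Where no library or group was removed, the cause was not tested.

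The labels do not say that replicate numbers pair the libraries, and pairing was not tested. Of 21 pairs with the same number, 8 had a correlation over 0.1 (range -0.24 to 0.40). The mean correlation was 0.07 for the same number and -0.02 for different numbers, and 7 of 15 libraries matched their own number best. Under the block, 4 nuclear genes were called at day 21. A planned search for mitochondrial copies in the whole nuclear genome was not run, since no whole-genome sequence was used here. Annotated transcripts were searched instead. Low counts limit mt-Nd3, mt-Nd4l and Ndufb2.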
